A study of Mus musculus with 2 samples.

Results

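The genes described here are Trp53, its MDM2-family regulators Mdm2 and Mdm4, and 7 target genes of p53: Ccng1, Trp53inp1, Sesn1, Zmat3, Phlda3, Gadd45a and Aen. They are the rows of the deposited table that carry these 10 symbols, out of 24013 gene symbols, with the transcript row of the highest mean standing for each gene. p53 targets listed here as shared with the stress factor ATF4, such as Sesn2, were kept out of the 10 and are given further on. That list need not hold every p53 target that ATF4 can induce. The RNA came from CD8 T cells of C57BL/6 mice, isolated as naive cells from the spleen and held for 24 hours on plate-bound antibodies to CD3 and CD28. One library was wild type, from mice aged 7 weeks, and the other lacked diacylglycerol kinase ζ (DGKζ-/-), from mice aged 6 weeks. DGKζ phosphorylates diacylglycerol and so limits Ras and protein kinase C signalling behind the T cell receptor. The labels name neither the deleted exons nor the number of animals in a library.

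p53 is a transcription factor that is made and destroyed continuously. MDM2 is the ubiquitin ligase that marks p53 for destruction, MDM4 (MDMX) is its partner that blocks p53's activation domain, and Mdm2 is itself a p53 target, which closes a negative feedback loop. DNA damage, nucleolar stress or oncogenic signalling release p53 from this loop, and it then binds pairs of a short palindromic element near genes of cell cycle arrest, repair, metabolism and apoptosis. In T cells p53 is known as a brake on proliferation after receptor stimulation.

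Matches to this element stand in the promoters of several of these genes, and they are shown so that a reader can see what such an element looks like there. RefSeq promoter windows (build GRCm38.p6, from 250 bases before to 50 after a start site) matched 8 of the 10 genes, with 11 windows, and not Trp53inp1 or Zmat3. The p53 half-site consensus, 10 bases long and equal to its own reverse complement, was searched on both strands without mismatch, and its matches are in capitals. For Ccng1, and for the p53 target Cdkn1a (the cell cycle inhibitor p21) as a reference, the capitals mark 2 adjacent half-sites, 20 bases that depart from the consensus at 1 base.
Ccng1, chr11:40755457-40755486, minus strand: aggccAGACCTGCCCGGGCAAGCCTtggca
Cdkn1a, chr17:29090923-29090952, plus strand: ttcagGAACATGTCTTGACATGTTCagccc
Trp53, chr11:69580274-69580303, plus strand: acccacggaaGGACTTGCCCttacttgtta
Mdm2, chr10:117710925-117710954, minus strand: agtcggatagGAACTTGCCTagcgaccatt
Aen, chr7:78895927-78895956, plus strand: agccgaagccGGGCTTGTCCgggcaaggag
Sesn1, chr10:41887256-41887285, plus strand: cttggccttcAAGCTTGTTTttgctggcct
Gadd45a, chr6:67037428-67037457, minus strand: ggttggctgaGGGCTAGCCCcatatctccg

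A half-site was found for 6 of the 8 genes, Ccng1 included, whereas 8.36% of all 32851 windows and 9.55% of all genes with a window held one. The 20-base element of Ccng1 starts 195 bases before the start site. That of Cdkn1a starts 51 bases before 1 annotated start, and the window of its other start had no match. Such an element, with at most 1 departure from the consensus, was present in 29 windows, 0.0883% of all. The half-site of Trp53 starts 75 bases before the start site, that of Mdm2 186 bases and that of Gadd45a 40 bases before it. That of Sesn1 starts 173 bases before 1 annotated start, and the window of its other start had no match. The half-site of Aen lies 121 bases before one annotated start and starts at base 11 of the transcript from the other. Mdm4 and Phlda3 had no match in these windows, and p53 elements in introns, as that of Mdm2, lie outside them. A match is a stretch of letters and was not measured as binding.

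With 1 library per genotype, none of the differences has a replicate check, and no p-value was computed. Values are normalized counts, the reads of a transcript row divided by the size factor of its library, where 1 read is worth 0.583 in the wild-type and 1.71 in the deficient library. With 1 row per gene, the depth was 37211969 wild-type and 13464169 deficient reads. The log2 ratio is log2((deficient + 10)/(wild type + 10)), and a gene is called at least 2-fold higher or lower where it reaches 1 or -1 at a mean of at least 50. Folds are given without the pseudocount of 10, with an exact 95% Clopper-Pearson interval that covers counting error only. Dgkz, the targeted gene, stood at 6714 and 2591 normalized counts, a log2 ratio of -1.37. The libraries also differed in sex-linked RNA: Xist had 24 wild-type and 5368 deficient reads, and the Y-linked gene Ddx3y 3759 and 0. Genotype, sex and age cannot be told apart in any difference below. The CD8 T cell markers were all read, Cd8a at 13090 and 8455 normalized counts and Cd3g at 4767 and 2603. Of the 7 markers 5 had a log2 ratio below 0, and 2, Cd2 (0.29) and Thy1 (0.14), above it, and their sum was 40153 and 32204. In bulk RNA, fewer cells of a type cannot be told apart from less RNA per cell.

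The p53 genes as a group were close to equal in both libraries, with Mdm2 as the highest and Trp53inp1 as the lowest log2 ratio among them. Of the 10 genes, 9 reached a mean of 50 normalized counts and Gadd45a did not. Of the 9, 0 were called higher and 0 lower at the 2-fold threshold. Of the 10518 genes compared, 1.30% were called higher and 1.29% lower, 2.60% in either direction. At 1.5-fold, 1 of the 9 (Trp53inp1) was lower and 0 were higher, beside 5.07% and 4.53% of all genes compared. The median log2 ratio was 0.039 over the 9 genes and 0.055 over all genes compared. The log2 ratio was above 0 for 6 of the 9, near the 58.2% of all genes compared. The interval of the fold excluded 1 for 6 of the 9, and for 57.5% of all genes compared, so that this alone sets no gene apart at this depth. The log2 ratios of 5 of the 9 lay between the quartiles of all genes, -0.14 and 0.22. Scaling both libraries to equal totals lowered every one of these ratios by about the same amount, left 3 of the 9 above 0, and brought Trp53inp1 past the threshold. That scaling also changed the split of all called genes from 137 higher and 136 lower to 115 higher and 179 lower. Recentring the log2 ratios on the median of all genes compared left 3 of the 9 above 0 as well.

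**Figure D1:**
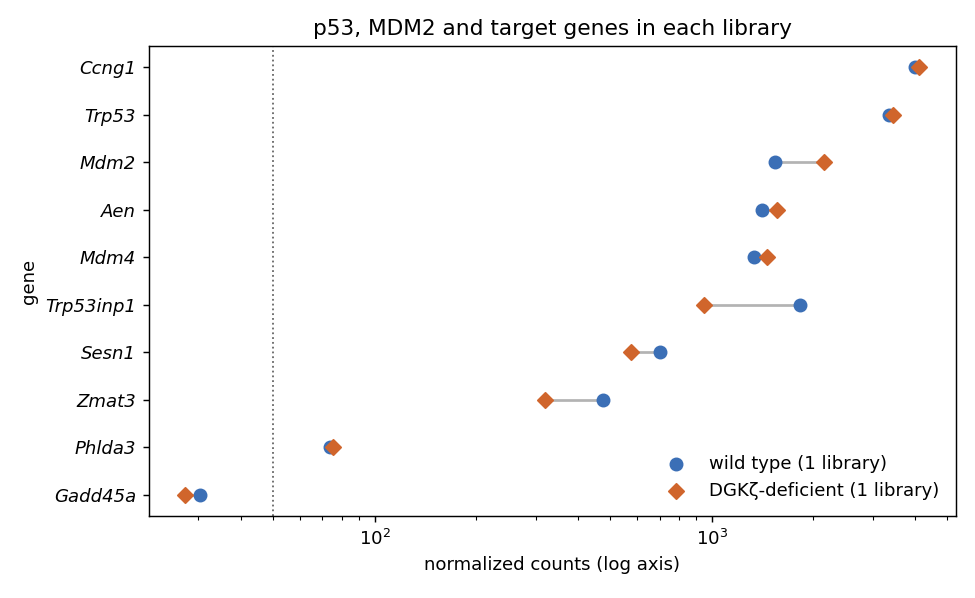
Normalized counts (log axis) of the 10 genes in the wild-type library (circles) and the DGKζ-deficient library (diamonds), 1 library each, ordered by their mean. The dotted line marks the minimum mean of 50, which Gadd45a does not reach, and the widest gap is that of Trp53inp1, at 1830 and 947.

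Trp53, the gene of p53 itself, had 3355 normalized counts in wild-type and 3447 in deficient cells. The values were near equal, with a fold of 1.03 (0.976 to 1.08) whose interval includes 1. The protein was not measured, and p53 is known to be regulated mostly by its stability. Both Trp53 transcript rows gave a log2 ratio of 0.039 and 0.040.

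Mdm2, the ubiquitin ligase, was read at 1544 and 2151 normalized counts, from 2648 and 1254 reads. It was the gene of the 10 with the largest difference upward, 1.39-fold higher in the deficient library (1.30 to 1.49). Its log2 ratio of 0.48 stood at percentile 93.2 of all genes compared, short of the 2-fold threshold, and was 0.39 at equal totals. Both Mdm2 transcript rows gave a log2 ratio between 0.47 and 0.48. Mdm4, the partner without strong ligase activity of its own, was read at 1336 and 1463 normalized counts. Its fold of 1.09 (1.01 to 1.18) was smaller than that of Mdm2, and its log2 ratio of 0.13 became 0.040 at equal totals. The intervals of the Mdm2 and Mdm4 folds did not overlap.

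The target genes went in both directions. Ccng1, which encodes cyclin G1, a regulator of MDM2 through the phosphatase PP2A, carries the 20-base element shown above. It was read at 3998 and 4114 normalized counts, 1.03-fold (0.982 to 1.08), near equal like Trp53. Aen, an apoptosis-enhancing nuclease, was read at 1412 and 1559 normalized counts. It was 1.10-fold higher (1.02 to 1.19), with a log2 ratio of 0.14 that was 0.052 at equal totals. Phlda3, a PH-domain protein that competes with AKT for membrane lipids, was read at only 73.5 and 75.5 normalized counts. These are 126 and 44 reads, and the fold of 1.03 had a wide interval, 0.712 to 1.46. Gadd45a, a stress protein that binds PCNA and cell cycle kinases, was read at 30.3 and 27.4 normalized counts, or 52 and 16 reads. Its fold of 0.905 (0.482 to 1.61) has an interval that spans from 2.07-fold lower to 1.61-fold higher, so a difference within it was not detectable at this depth.

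The remaining 3 target genes were lower in the deficient library. Trp53inp1, a stress protein that promotes p53-dependent apoptosis and autophagy, was read at 1830 and 947 normalized counts, from 3138 and 552 reads. It was 1.93-fold lower (1.77 to 2.12), and its log2 ratio of -0.94 stood at percentile 1.52 of all genes compared. Both of its transcript rows stood at -0.94 on that scale. The gene lies just short of the threshold: the log2 ratio was -1.03 at equal totals, which counts it as called, and -0.998 after recentring on the median of all genes. Zmat3, an RNA-binding zinc finger protein that acts in splicing and RNA stability, was read at 476 and 319 normalized counts. It was 1.49-fold lower (1.27 to 1.76), a log2 ratio of -0.56 at percentile 5.50. Sesn1, the p53-induced sestrin that restrains mTORC1, was read at 701 and 575 normalized counts. It was 1.22-fold lower (1.08 to 1.38), a log2 ratio of -0.28 at percentile 14.7, and its shorter transcript row gave -0.29.

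**Figure D2:**
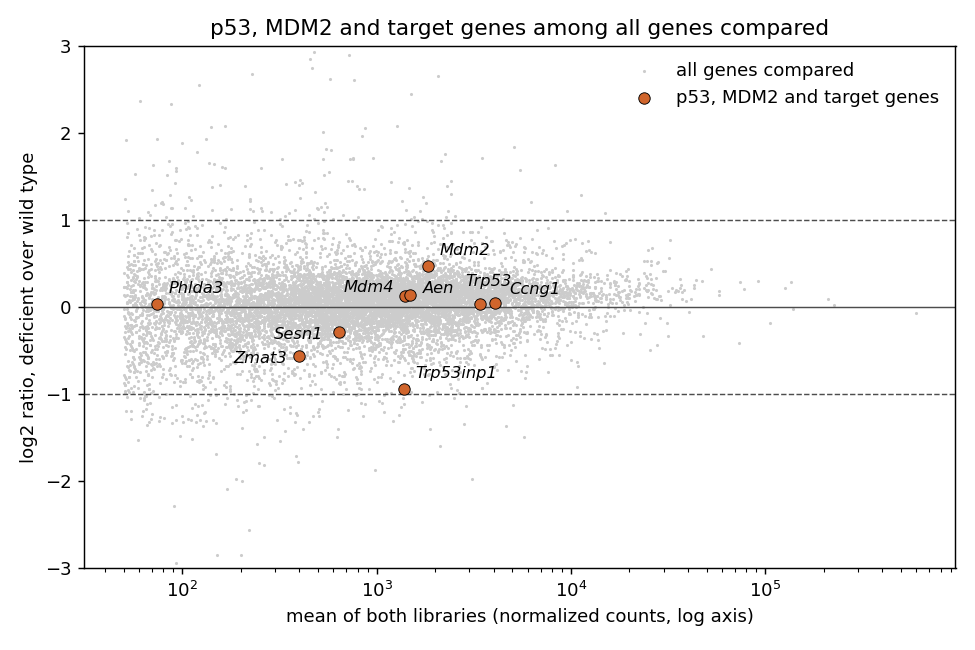
Log2 ratio (deficient over wild type) against the mean of both libraries in normalized counts (log axis) for all genes compared (grey) and for the 9 p53, MDM2 and target genes that reach a mean of 50 (orange). Dashed lines mark the 2-fold threshold; Trp53inp1 at -0.94 lies next to the lower line, Mdm2 at 0.48 is the highest of the 9, and 11 of the 10518 genes lie beyond the plotted range of 3 in either direction.

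In the authors' deposited table, the log2 fold change of Trp53inp1 was -0.58 with an unadjusted p of 0.0255 and an adjusted p of 0.999. The same authors' deposited table gave Mdm2 a log2 fold change of 0.34 with an unadjusted p of 0.161, and Zmat3 one of -0.33 with a p of 0.210. The other 7 genes had unadjusted p-values from 0.452 to 0.962 in the authors' deposited table. Log2 fold changes in the authors' deposited table are closer to 0 than the log2 ratios here, as for Dgkz with -0.20 against -1.37. An adjusted p under 0.05 was given to 0 rows of the authors' deposited table, and an unadjusted p under 0.05 to 326 of its 30433 rows with a p-value.

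Levels of different genes were compared per kilobase of transcript, with lengths from GENCODE M21 through the RefSeq accessions. In the wild-type library Trp53 was the most abundant at 1797 normalized counts per kilobase, followed by Ccng1 at 1138 and Mdm2 at 498. Mdm4 (383), Trp53inp1 (339), Aen (285) and Sesn1 (184) came next in normalized counts per kilobase. Zmat3 (61.1), Phlda3 (51.2) and Gadd45a (24.8) were the lowest. Counting intervals of Zmat3 (57.0 to 65.4) and Phlda3 (42.7 to 61.0) overlapped, so these neighbours were not separated. In the deficient library Trp53inp1 stood at 175 normalized counts per kilobase, below Aen at 315, and its interval (161 to 190) overlapped that of Sesn1 (135 to 168). Mdm2 stood at 694 there, still between Ccng1 and Mdm4. The place of Aen depends on the transcript row: over its shorter transcript of 2007 bases it would stand at 689 and 761 normalized counts per kilobase, against 285 and 315 over 4956 bases. The same holds for Sesn1, which over its shorter transcript of 2600 bases would stand at 255 and 208 normalized counts per kilobase, above Trp53inp1 in the deficient library. The order describes 1 library each, and its spread between animals is unknown.

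The other genes of the pathway were taken as lists. Among the p53 family, cofactors and modifiers, 24 of 28 genes were compared, 0 were called in either direction, and the median log2 ratio was -0.066. The acetyltransferase gene Crebbp, a p53 coactivator, had the largest difference with a log2 ratio of -0.72, at 3286 and 1988 normalized counts. Trp53rk, a kinase of p53, had -0.46, on 391 and 95 reads. The p53 relatives Trp63 and Trp73 and the MDM2 inhibitor gene Cdkn2a (ARF) had 10, 4 and 1 wild-type reads and 0 deficient reads. A count of 0 allows up to 3 reads, so nothing can be said of a difference in these. Of the 9 damage sensor and checkpoint genes, H2afx, the histone variant phosphorylated at DNA breaks, was called higher at 6018 and 12986 normalized counts, 2.16-fold (2.09 to 2.22). The other 8 were not called: the kinase genes Atm, Atr, Prkdc, Chek1 and Chek2 had log2 ratios from -0.038 to 0.19, and Hipk2, a p53 kinase, had -0.41.

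p53 targets outside the 10 genes included several with larger differences. Of 16 targets of arrest and repair, 3 were called higher, 0 lower and 13 not called, with a median log2 ratio of 0.15. Cdkn1a, whose 20-base element is printed above, had 43.1 and 111 normalized counts, from 74 and 65 reads. It was 2.58-fold higher (1.82 to 3.65). Gadd45b stood at 243 and 813 normalized counts, 3.35-fold higher (2.93 to 3.83), and Gadd45g at 70.6 and 156, 2.21-fold higher (1.67 to 2.93). These stress-induced relatives of Gadd45a are also known to be induced by signals other than p53, NF-κB among them for Gadd45b. With a pseudocount of 50 or a minimum mean of 200, 1 of the 3 calls was left. At equal totals, and after recentring, 2 were left. The median of this list was 0.056 at equal totals.

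Of 16 targets of apoptosis and metabolism, 13 were compared, 1 was called higher, 1 lower and 11 were not called, with a median of 0.31. Over all 16 genes, without the minimum mean, the median was 0.028. Fas, the death receptor, was the gene called higher, at 215 and 581 normalized counts, 2.71-fold (2.33 to 3.15). With the lowest transcript row of each gene in place of the highest, no gene of this list was called higher. Sfn, the gene of 14-3-3σ, an arrest protein best known from epithelia, was called lower at 358 and 41.2 normalized counts, 8.70-fold (5.79 to 13.7). Bax, the pro-apoptotic pore protein and a classic p53 target, had a log2 ratio of 0.34, at 1422 and 1797 normalized counts.

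The targets that p53 shares with ATF4 or its partner CHOP had a median of 0.72 over 5 compared genes, with 2 called higher and 0 lower. That median was 0.53 with a pseudocount of 50, 0.60 over all 6 genes without a minimum mean and 1.52 at a minimum of 200. Sesn2, the sestrin known to be induced by ATF4 as well as p53, stood at 237 and 856 normalized counts, 3.61-fold higher (3.16 to 4.13). Ddit4, an inhibitor of mTORC1, stood at 272 and 797, 2.93-fold higher (2.58 to 3.34). The sestrins thus differed from each other in these libraries: Sesn2 had a log2 ratio of 1.81, Sesn1 one of -0.28 and Sesn3 one of -0.23, and the intervals of the Sesn2 and Sesn1 folds lay far apart. Of 12 relatives of the 10 genes by name or family, 11 were compared and 3 were called higher, namely Sesn2, Gadd45b and Gadd45g, with 0 lower and a median of 0.11. That median was 0.0021 without a minimum mean and 0.46 at a minimum of 200. Ccng2, the relative of Ccng1, had a log2 ratio of 0.77, at 222 and 384 normalized counts. Phlda1, the relative of Phlda3, had the lowest log2 ratio of the list, -0.86, at 70.6 and 34.3 normalized counts, and 1 gene of the list was called lower with a pseudocount of 1.

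Genes known to be lowered when p53 acts through p21 and the DREAM complex, all of them cell division genes, were above 0 in 8 of 8 cases, beside 58.2% of all genes compared. Their median log2 ratio was 0.65, with 0 called in either direction. With a pseudocount of 1, 1 of the 8 was called higher, and at a 1.5-fold threshold 4 were. Ccnb2, a cyclin of mitosis, had a log2 ratio of 0.98 and Cdc20, an activator of the anaphase-promoting complex, one of 0.94. Over all 83 compared genes of these lists outside the 10, 7 were called higher and 1 lower, with a median of 0.099, beside 1.30% higher, 1.29% lower and a median of 0.055 for all genes compared.

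**Figure D3:**
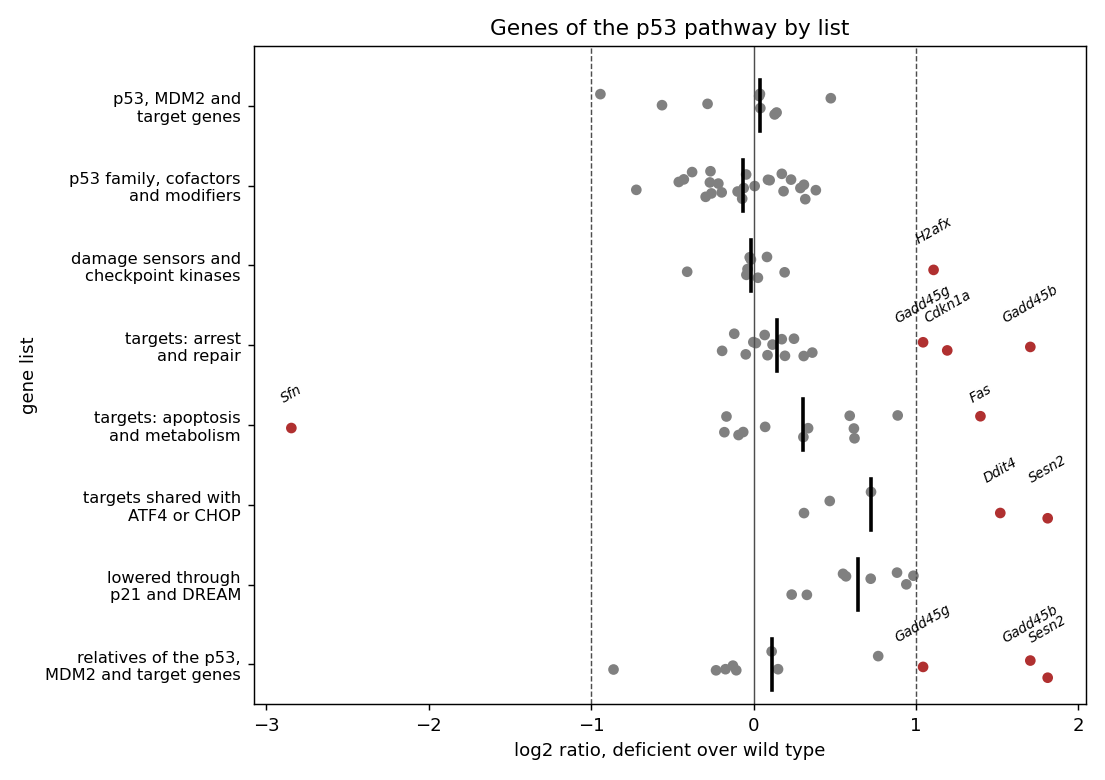
Log2 ratio (deficient over wild type) of every compared gene of each list, 1 point per gene, with the list's median as a black bar, called genes in red with their names and dashed lines at the 2-fold threshold. The p53, MDM2 and target genes have no red point and a median of 0.039, while the targets shared with ATF4 or CHOP have a median of 0.72. Sesn2, Gadd45b and Gadd45g are on 2 lists each.

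Markers of other cell types differed between the same libraries. Of 9 B cell markers 6 were compared, all 6 below 0, and H2-Eb1 was among those called lower (log2 ratio of -1.14). Their sum over 9 genes was 1573 and 892 normalized counts, and no marker of that list was at 0. Cd4 was called lower (171 and 53.2 normalized counts), while Foxp3, on the same list of 3 CD4 T cell markers, had a log2 ratio of 0.28, and the sums of that list were 490 and 422. Of 5 NK markers 2 were compared, Klrd1 (log2 ratio -1.49, called lower) and Klrk1 (0.11), and the sums of that list were 992 and 767. Klrd1 (395 and 134 normalized counts) and Klrk1 (587 and 633) made up nearly all of these sums. The NK genes Ncr1, Klrb1c and Klra8 had 7, 9 and 2 wild-type reads and 0 deficient reads. The sums therefore follow Klrd1 and Klrk1 and give little measure of NK cells. Of 7 myeloid markers 2 were compared, Mpeg1 (0.52) and Cd68 (-0.37), and the sums of that list were 270 and 268. The myeloid markers under the minimum mean were all lower in the deficient library. Itgam had 27 wild-type and 1 deficient reads, Csf1r 28 and 4, Emr1 16 and 1, Lyz2 13 and 1 and Cd14 1 and 0. Among these only the interval of the Itgam fold excluded 1. Whether cells of these types were present, and their part in the lower values of Trp53inp1, Zmat3 and Sesn1, was not tested.

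**Figure D4:**
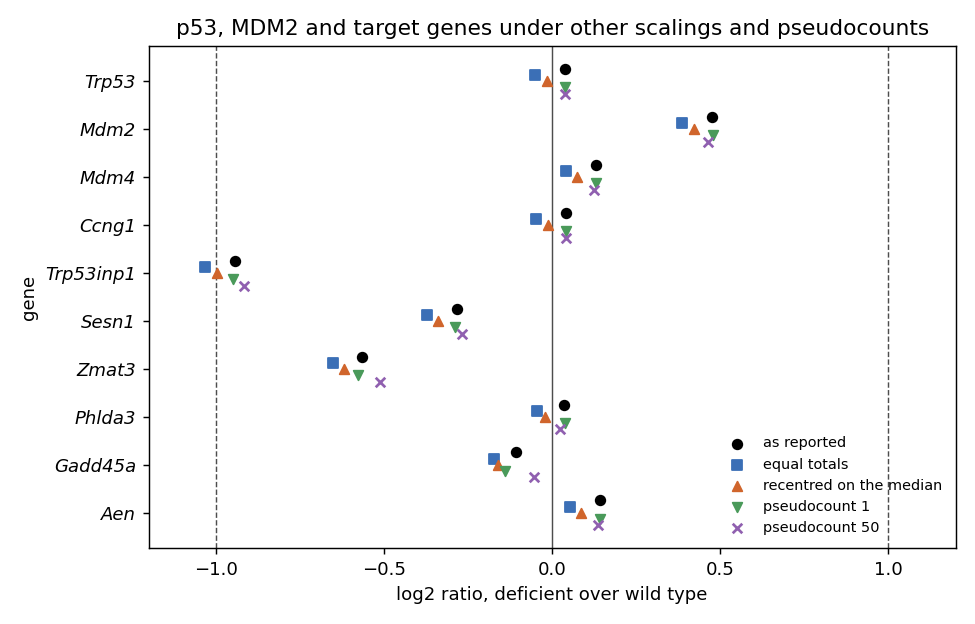
Log2 ratio (deficient over wild type) of the 10 genes as reported and under 4 other settings, 1 row per gene, with dashed lines at the 2-fold threshold. Scaling to equal totals (squares) moves Trp53inp1 to -1.03, past the lower line. Both this scaling and recentring on the median (triangles) move Trp53, Ccng1 and Phlda3 from just above to just below 0.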

How the data were processed

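RNA-seq libraries were made with the NEBNext Ultra kit, per the labels' protocols; this kit does not mark strand. STAR 2, DESeq and the build mm9 are named in the submitters' processing notes, with no role. Which program counted the reads is not given in the sources used here. Values in the main table that the authors deposited are a signal per RefSeq transcript row, the count divided by a size factor. In both libraries 100% of values were whole multiples of 1 read (relative tolerance 0.0001), so reads were recovered. Because the tolerance is relative, the deepest rows, such as wild-type Dgkz with 11515 reads, pass whatever their value. The check therefore bears on rows with fewer reads. The authors deposited log2 fold changes, p-values and a test score in a second table; the score was not used.

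Of 33018 transcript rows, 1 with shifted columns was left out. Rows of a gene share reads, so 1 row stood for each gene. A count test has no residual degrees of freedom with 1 library per genotype. Intervals were computed with scipy 1.17.1. The procedure was tested on simulated data that held counting error only, so that test says nothing of the spread between animals. Intervals and the limit of 3 reads for a count of 0 cover counting error only, since reads without molecular identifiers can be copies of 1 molecule. The alternatives were pseudocounts of 1 and 50, equal totals, recentring, other transcript rows, no minimum or a minimum mean of 200, and a 1.5-fold threshold.

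The genes and lists were chosen with earlier results of these data known. All 10 genes, Dgkz, called genes of each list where a direction has 5 or fewer, and, per list, the 2 genes farthest from a log2 ratio of 0 were named by rule; 1 gene so named is not reported here. Bax, Sesn3, Ccng2, Phlda1, Cd2, Thy1, Trp63, Trp73, Cdkn2a, Ncr1, Klrb1c, Klra8, Cd14, Xist, Ddx3y and the damage kinases other than Hipk2 were named after their values were seen. The same holds for Itgam, Csf1r, Emr1 and Lyz2.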

Additional observations from a re-analysis of the deposited data

How the results depend on the processing

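Of 122 recomputed values (the 10 genes, their counts and median, all genes called and the other lists together), 108 did not move. A count had to be equal or within 1.5 times the first count. A log2 ratio could shift by the distance from the middle of its counting interval to either end, on the log2 scale. The median of the 9 genes took the interval of Trp53. For Phlda3 and Gadd45a, with few reads, this rule allows wide shifts. Scaling to equal totals moved Trp53 to -0.051, Ccng1 to -0.048 and the median of the 9 genes to -0.048, and called 1 of the 9 lower, Trp53inp1; this scaling shifts all ratios alike. Phlda3 also changed sign, to -0.045, within its interval. Recentring on the median moved Trp53 to -0.016, Ccng1 to -0.013 and Phlda3 to -0.021, each within its interval. At a 1.5-fold threshold 1 of the 9 was lower (Trp53inp1), 476 genes were higher and 533 lower, and 17 genes of the other lists were higher and 3 lower. The number of genes called lower was 67 with a pseudocount of 50, 375 without a minimum and 71 at a minimum mean of 200. Of the other lists, 2 genes were lower with a pseudocount of 1 and 0 at a minimum mean of 200. The transcript row changed no call of the 10 genes, and their rows differed by at most 0.007 in log2 ratio. No paired analysis was possible because there is 1 library per genotype, and for the same reason no library could be left out. Of 182 values of single lists, 16 moved, several of them named beside the lists above. A list median counted as moved only beyond a fixed tolerance. That tolerance was wider than the shift at equal totals, so no list median could count as moved under that scaling. There the median of the arrest and repair targets went from 0.15 to 0.056, and that of the relatives from 0.11 to 0.022. Depth limits Phlda3 and Gadd45a, with 44 and 16 reads in the deficient library.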
